A study of Mus musculus with 24 samples.

Results

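The mucins and goblet cell genes described here were the 10 genes *Muc2*, *Muc3*, *Muc13*, *Muc1*, *Tff3*, *Fcgbp*, *Agr2*, *Spink4*, *Zg16* and *Spdef*. They were chosen by name, and a probe set was taken for a gene when it carried that symbol alone in the annotation of the arrays. All 10 genes were found among the 18194 genes that have such a probe set, with 14 of the 45101 probe sets. *Muc13* and *Agr2* had 2 probe sets each, *Zg16* had 3, and the other 7 genes had 1. Their signals were compared in duodenum between wild-type and *Hfe*-/- mice and between 2 inbred strains, C57BL/6 (B6 below) and DBA/2 (D2 below), with liver as the comparison tissue.

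The mice were males 7 weeks old, in 4 groups of 3: wild-type B6, *Hfe*-/- B6, wild-type D2 and *Hfe*-/- D2. The *Hfe*-/- mice lack functional *Hfe* in every tissue and were produced in the animal facility of the study, whereas the wild-type mice were purchased, so that origin and genotype cannot be told apart. Each group had 3 arrays of duodenum and 3 of liver, 24 in all, 1 mouse to an array, and they are named below by strain, genotype and replicate number (D2 KO 2 is replicate 2 of the *Hfe*-/- D2 mice). The signal of a probe set is in arbitrary units, on arrays scaled to a common mean of 100. It compares arrays for the same probe set but does not rank one gene against another. The question asked of each gene was whether the loss of *Hfe* changed its RNA in either strain, and whether the strains differed to begin with.

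The intestinal mucus is built from mucins, large proteins that carry dense chains of sugar. Goblet cells store the gel-forming mucin Muc2 in granules and release it together with smaller proteins that bind to or stabilize the gel, such as Fcgbp, Zg16 and the trefoil peptide Tff3. Enterocytes, in contrast, carry mucins anchored in the membrane of their brush border, among them Muc3, Muc13 and Muc1. Spdef is a transcription factor of goblet cell maturation, and Agr2 is a protein of the endoplasmic reticulum that is needed to assemble Muc2. In the duodenum mucus is also made by Brunner's glands, which lie under the epithelium near the stomach.

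All 10 genes had higher signals in duodenum than in liver, against 43.1% of all genes higher in duodenum (limma, with a threshold of 0.01 on the adjusted p). On 9 of them the lowest of the 12 duodenum arrays lay above the highest of the 12 liver arrays. The share of all genes whose tissues did not overlap, in either direction, was 39.5%. The liver signals of *Muc2*, *Muc3*, *Muc13*, *Muc1*, *Fcgbp*, *Agr2*, *Spink4* and *Spdef* were below 20, the minimum used to keep a probe set, on all 12 arrays for the brightest probe set of each gene (the second *Agr2* probe set reached 21.0 on 1 array). With liver signals under 20 set to 20, duodenum exceeded liver at least 138-fold for *Muc2*, 167-fold for *Muc3*, 219-fold for *Fcgbp* and 131-fold for *Spink4*. *Muc1* was the exception to the separation of tissues: its duodenum signals ran from 2.59 to 91.1 with a median of 42.6, and its highest liver signal was 7.74. On 3 of the 12 duodenum arrays *Muc1* was itself below 20, so that its differences between groups are poorly measured.

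**Figure D1:**
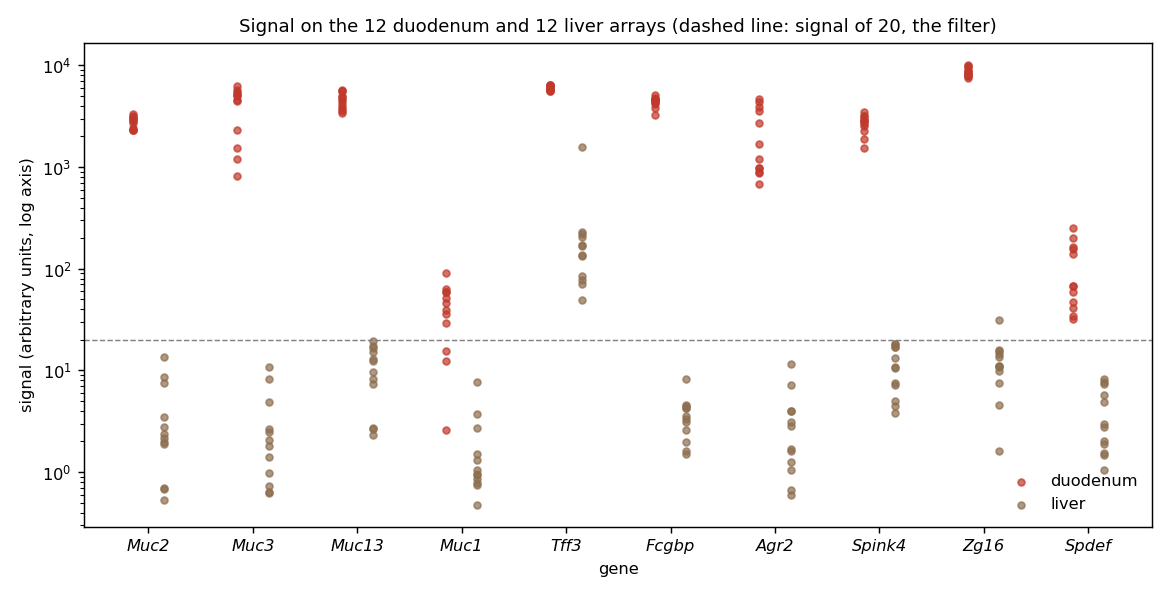
Signal of each gene on the 12 duodenum arrays (red) and the 12 liver arrays (brown), on a log axis in arbitrary units; the dashed line marks a signal of 20. The tissues are apart for every gene but *Muc1*, and *Tff3* is the gene with liver signals above the line on all 12 arrays, 1 of them at 1569.

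The targeted gene followed the labels. *Hfe* signals in duodenum were 76.6 to 98.7 in wild-type and 15.7 to 25.7 in *Hfe*-/- B6 mice, and 95.3 to 105 in wild-type and 29.0 to 45.1 in *Hfe*-/- D2 mice, with no overlap. Among the duodenum arrays, D2 KO 2 and D2 KO 3 stood apart in markers of the exocrine pancreas, an organ that lies against the duodenum. The summed signal of the 16 acinar markers measured was 10931 and 11891 on these arrays, 134440 on D2 KO 1 and 22919 to 132780 on the other 9. The Paneth cell markers (5 measured) were also lowest there, with sums of 7738 and 5042 against 12731 to 21490 elsewhere. So were those of B and plasma cells (5 measured; 4420 and 3972 against 5691 to 7744) and of T and intraepithelial lymphocytes (7 measured; 2165 and 1963 against 2236 to 4814). No acinar marker was at 0: on D2 KO 2 *Cpb1*, a carboxypeptidase of acinar cells, was at 21.1 and the acinar marker *Reg1* at 7991. Their part in the differences given below was not tested beyond the fits stated. RNA was taken from dissected duodenum, so fewer cells of a type and less RNA per cell cannot be told apart in any of these values.

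*Muc3* was higher in *Hfe*-/- than in wild-type D2 mice, and it was the only 1 of the 10 genes called in that comparison (0.492% of all genes met the threshold, an adjusted p of 0.1 or less). *Muc3* encodes a large mucin of the enterocyte brush border. Its signals were 1539, 1209 and 812 in wild-type D2 mice, and 2294, 5057 and 4473 in *Hfe*-/- D2 mice. All 3 *Hfe*-/- arrays lay above all 3 wild-type arrays, with D2 KO 1 nearest to the wild-type range. The mean rose from 1186 to 3941, a log2 fold change of 1.70 (standard error 0.27, n = 3 mice per group; limma, adjusted p = 0.0379), or 3.25-fold. The 95% interval of the log2 fold change was 1.12 to 2.28.

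In B6 mice the *Muc3* signals were 6332, 5072 and 4611 in the wild type and 5515, 5725 and 5229 in *Hfe*-/- mice. These groups overlapped, and the log2 fold change was 0.05 (standard error 0.27, 95% interval -0.53 to 0.63). The difference between the strains in the effect of the knockout was 1.65 (standard error 0.38, unadjusted p = 0.000811), and it did not pass after adjustment over all probe sets (limma, adjusted p = 0.232). The test of the difference itself thus does not show a response confined to D2 mice.

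*Muc3* also differed between the wild-type strains. It was 4.61-fold lower in wild-type D2 than in wild-type B6 mice (log2 fold change -2.21, standard error 0.27; limma, adjusted p = 0.000194), and it was the only 1 of the 10 genes called there, against 3.33% of all genes at the threshold of 0.01. The brightest wild-type D2 array, at 1539, lay far below the dimmest wild-type B6 array, at 4611. Between *Hfe*-/- mice of the strains the difference in *Muc3* was -0.56 (standard error 0.27, 95% interval -1.14 to 0.02; limma, adjusted p = 0.262). The 2 highest *Hfe*-/- D2 arrays, at 5057 and 4473, lay within or close to the range of the wild-type B6 arrays.

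**Figure D2:**
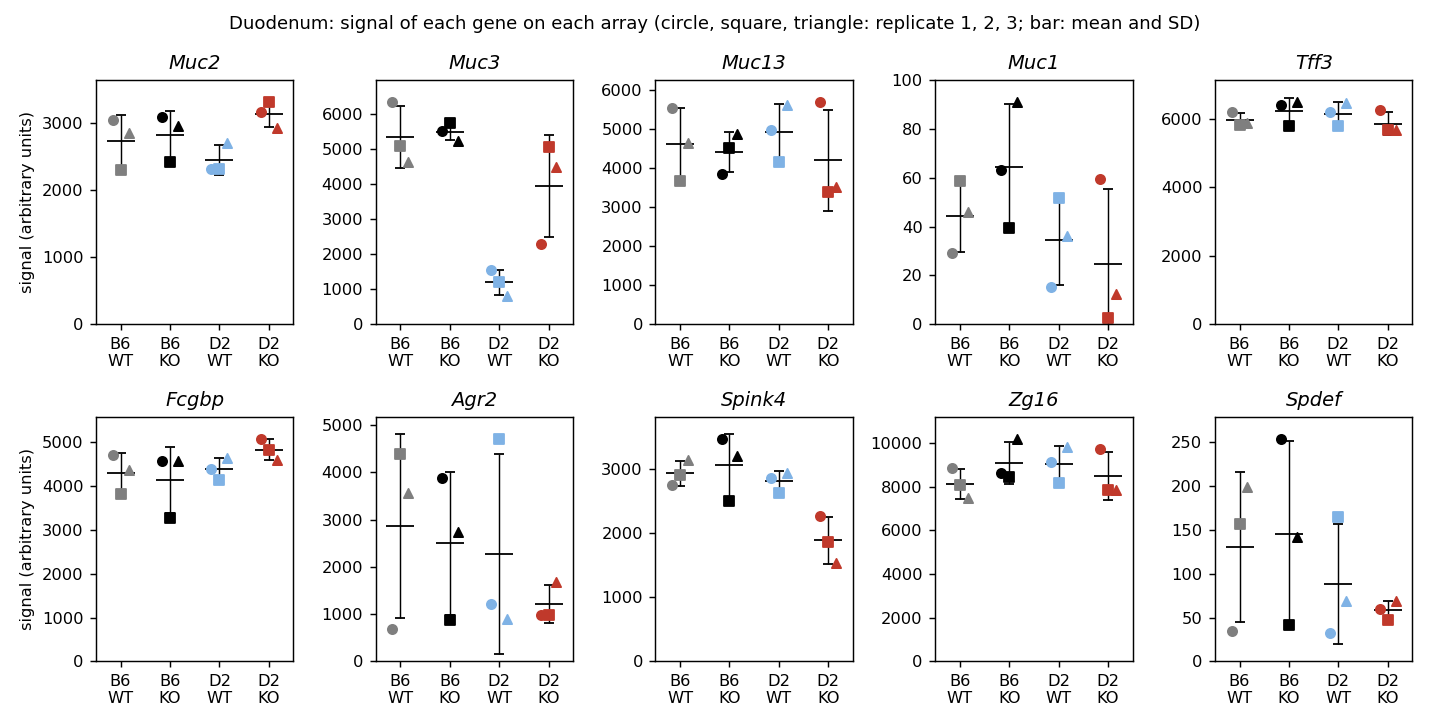
Signal of each gene in duodenum, in arbitrary units on a linear axis from 0, for the 4 groups of 3 mice; circle, square and triangle are replicates 1, 2 and 3, and the bar gives the mean and SD. *Muc3* is low in wild-type D2 mice and *Spink4* is lowest in *Hfe*-/- D2 mice, while *Agr2* and *Spdef* are split within groups.

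The *Muc3* call in D2 mice rested on few arrays. It was lost without D2 KO 2 (log2 fold change 1.48, limma adjusted p = 0.145) and without D2 KO 3 (1.57, adjusted p = 0.213), and the change was 1.0 (adjusted p = 0.555) without both of these arrays, which are the ones low in pancreatic, Paneth cell and lymphocyte markers. With the acinar marker level as a covariate it was 1.35 and still called (adjusted p = 0.0919). The array records give a fluidics station and a hybridization time but no run. Runs were inferred from these times, with a gap of more than 30 minutes starting a new run. Within the run and fluidics station shared by D2 WT 3 and the *Hfe*-/- D2 arrays the log2 difference was 2.20. Its wild-type side was D2 WT 3 alone, at 812 the lowest *Muc3* signal of the 12 duodenum arrays. For the strains, the call was kept without any 1 array (-2.42 to -1.96). It was lost with the hybridization run as a block (-2.19, adjusted p = 0.0751), and no wild-type D2 array shared a run with a wild-type B6 array. In the 1 combination of run and station that held both strains, D2 WT 1 and 2 were compared with B6 KO 2 and 3. The log2 difference was -2.00 (D2 minus B6), and these arrays differ in genotype as well as in strain.

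**Figure D3:**
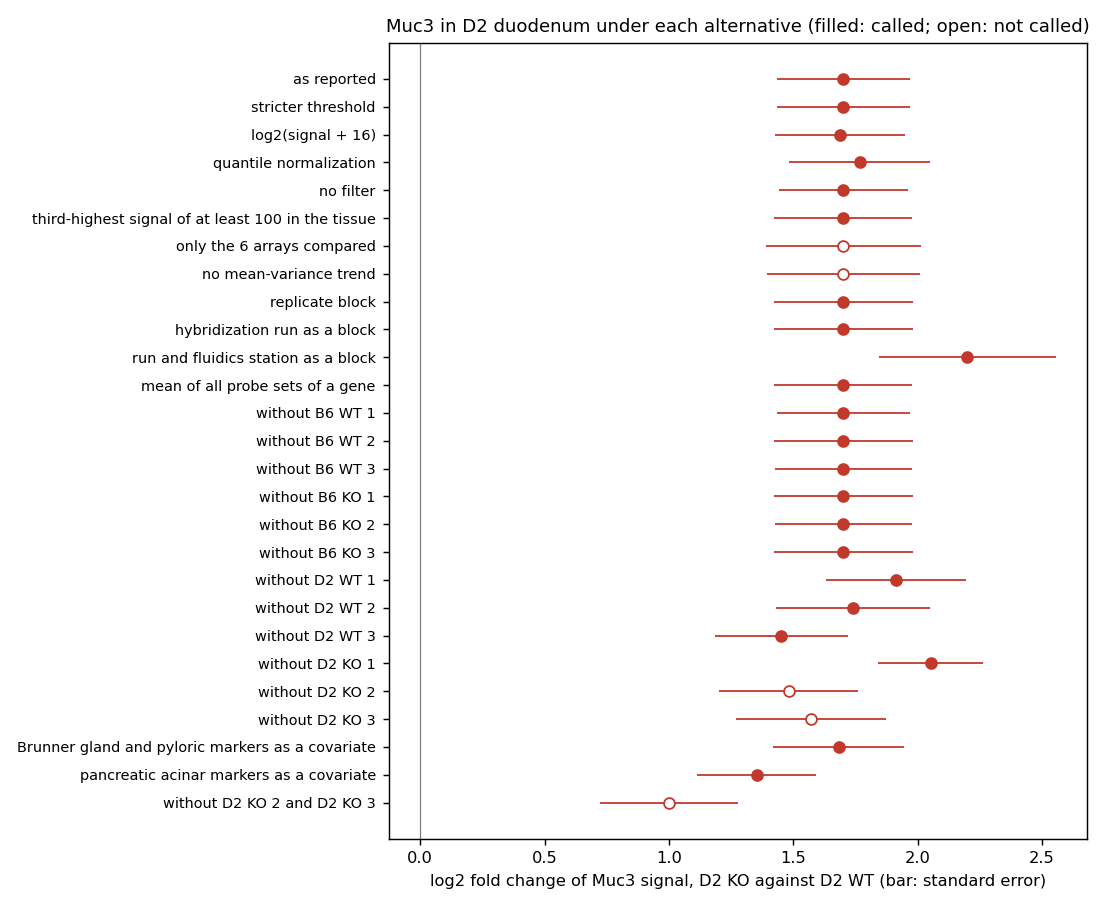
Log2 fold change of *Muc3* in duodenum of *Hfe*-/- against wild-type D2 mice (x axis; bars are standard errors) as reported and under each alternative (rows); filled points were called. Every value lies above 0, from 1.0 to 2.20, and the open points are the 5 alternatives in which the call was lost.

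The start of *Muc3* is shown because this gene carried both calls above. The letters are the 250 bases before the annotated start in RefSeq (mouse build GRCm38.p6, chr5:137166047-137166296, minus strand), written along the gene, with matches to AGGTCA and CAAAGGT in capitals. AGGTCA is the core of response elements of many nuclear receptors, and CAAAGGT is part of the motif of HNF4, a nuclear receptor of the intestinal epithelium.
*Muc3*: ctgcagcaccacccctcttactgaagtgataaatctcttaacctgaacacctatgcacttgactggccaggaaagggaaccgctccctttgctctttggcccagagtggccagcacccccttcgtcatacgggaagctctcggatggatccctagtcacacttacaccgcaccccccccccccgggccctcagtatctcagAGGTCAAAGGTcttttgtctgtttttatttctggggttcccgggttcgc
AGGTCA begins 49 and CAAAGGT 45 bases before the start, on the strand of the gene, and they overlap by 2 letters. Both were chosen after the sequence had been seen and were searched on both strands. Of 32817 promoters of this length, 14% hold AGGTCA and 3.54% hold CAAAGGT. The other member with both was *Muc13*, in the second of its windows. RefSeq promoters were available here for 7 of the 10 genes.

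The other membrane mucins gave no call. *Muc13*, a mucin of the enterocyte surface, had signals of 4984, 4154 and 5626 in wild-type and 5706, 3401 and 3525 in *Hfe*-/- D2 mice for its brighter probe set. The groups overlapped (log2 fold change -0.26, 95% interval -0.69 to 0.17), and in B6 mice the difference was -0.05 (-0.48 to 0.38). The second probe set gave 0.00 in D2 and -0.32 in B6 mice, and neither was called. *Muc13* was low on the arrays with the highest smooth muscle markers, contractile genes of the gut wall. Over the 12 arrays its log2 signal and the mean of 7 such markers correlated inversely (Pearson r = -0.95, Spearman rho = -0.93; permutation test, two-sided, p = 1.0e-05, the smallest that 100000 resamples can give, and 4e-05). Adjusted over the 30 relations tested (10 genes with 3 marker lists) these were 0.0003 and 0.0012. The permutations moved all 12 arrays freely, without regard to group or run, so these p-values do not take the design into account. The r was -0.93 without D2 KO 2 and D2 KO 3, the arrays farthest from the median, and -0.95 after the group means were taken out. No combination of hybridization run and station held more than 4 of the duodenum arrays, too few for a value within it. The 2 lowest *Muc13* signals were also those of D2 KO 2 and D2 KO 3. With enterocyte markers the r of *Muc13* was 0.73 (adjusted permutation p = 0.081), or 0.56 without the 2 arrays farthest from the median. Correlations with the acinar and the Brunner gland and pyloric markers were computed without a test and lie outside the 30. For *Muc13* and the acinar markers r was 0.72, or 0.77 after the group means were taken out. Of the other relations tested, *Agr2* with enterocyte markers passed 0.05 by rank (rho = -0.82, adjusted permutation p = 0.029) and not by r (-0.75, adjusted permutation p = 0.081). The *Agr2* arrays fall into clusters, given below, so its values with enterocyte markers are read as a description. *Zg16* with smooth muscle markers had r = -0.70 (adjusted permutation p = 0.098).

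*Muc1*, a membrane mucin of many glandular epithelia, was dim and variable. In D2 mice its signals were 15.4, 51.7 and 36.0 in the wild type and 59.5, 2.59 and 12.2 in *Hfe*-/- mice. The 2 lowest were on D2 KO 2 and D2 KO 3, and the log2 fold change of -1.31 had a 95% interval from -3.13 to 0.52. Without these arrays the value turned to 0.96. Against *Hfe*-/- B6 mice, at 63.2, 39.3 and 91.1, *Hfe*-/- D2 mice differed by -2.30 (limma, adjusted p = 0.131), and this too was -0.03 without them.

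No call was made for the gel-forming mucin. *Muc2*, the main mucin of goblet cell granules, had signals of 2304, 2318 and 2706 in wild-type D2 mice and of 3164, 3311 and 2916 in *Hfe*-/- D2 mice. These groups did not overlap, but the difference of 0.36 on the log2 scale (standard error 0.12, 95% interval 0.09 to 0.63, unadjusted p = 0.0122) did not pass after adjustment (limma, adjusted p = 0.289). In B6 mice the wild-type signals of 3045, 2290.2 and 2855 overlapped those of 3088, 2417 and 2954 in *Hfe*-/- mice (0.05, interval -0.22 to 0.32). From the lowest to the highest of the 12 duodenum arrays *Muc2* ranged 1.45-fold.

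The proteins secreted with Muc2 varied little. *Tff3*, the trefoil peptide of goblet cells, ran from 5657 to 6488 over the 12 arrays, and the difference between genotypes in D2 mice was -0.07 (95% interval -0.25 to 0.11). *Fcgbp*, which is cross-linked into the mucus gel, ran from 3272 to 5059 and differed by 0.14 in D2 mice (interval -0.13 to 0.41) and by -0.06 in B6 mice (interval -0.34 to 0.21). *Zg16*, a lectin that binds bacteria in the mucus, ran from 7484 to 10165 for its brightest probe set. Its difference was -0.09 in D2 mice (interval -0.35 to 0.16) and 0.16 in B6 mice (interval -0.10 to 0.41). The other *Zg16* probe sets gave 0.17 and -0.03 in D2 mice, and -0.002 and 0.14 in B6 mice, none of them called. *Zg16* is also known from zymogen granules of the pancreas. For its brightest probe set the 3 lowest signals, 7484, 7824 and 7852, were on B6 WT 3, D2 KO 2 and D2 KO 3. These are the 3 arrays with the lowest acinar sums. The other probe sets did not share this order. On 1 of them D2 KO 2 and D2 KO 3, at 6834 and 6956, lay above the median of 6724. On the other, D2 KO 3 at 8056 lay above B6 WT 2 at 7548. *Reg1*, listed as an acinar marker, was among the genes most like the brightest probe set over the 12 arrays (Pearson r = 0.96, a description). *Reg1* ran only from 7427 to 10024, with its 3 lowest signals on the same 3 arrays. The part of pancreatic RNA in the *Zg16* signal was not tested. The *Zg16* and *Tff3* signals stood near the top of the scale (the highest signal of any probe set was 9334 to 12775 on the duodenum arrays), where an array can saturate.

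Within groups, once the group means were removed, *Tff3* and *Zg16* moved together over the 12 arrays (Pearson r = 0.86), as did *Muc2* and *Fcgbp* (r = 0.89) and *Tff3* and *Fcgbp* (r = 0.84). These points share an array, and its RNA input and scaling, so the values are given as a description.

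*Spink4* was the secreted gene that came nearest to a call for the knockout. It encodes a small peptide of goblet cells related to serine protease inhibitors. Its signals were 2867, 2630.4 and 2938 in wild-type D2 mice and 2266, 1870.2 and 1537 in *Hfe*-/- D2 mice, without overlap. The log2 fold change was -0.59 (standard error 0.14, 95% interval -0.89 to -0.28, unadjusted p = 0.00115), and it did not pass after adjustment (limma, adjusted p = 0.143). In B6 mice *Spink4* was 2757, 2910.4 and 3148 in the wild type and 3467, 2509 and 3208 in *Hfe*-/- mice, with a difference of 0.05 (interval -0.26 to 0.35). The interaction was -0.64 (limma, adjusted p = 0.347). Without D2 KO 2 and D2 KO 3 the D2 difference was -0.31 (adjusted p = 0.921).

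Between *Hfe*-/- mice, D2 *Spink4* signals were 1.62-fold lower than those of B6 mice (log2 fold change -0.70, standard error 0.14; limma, adjusted p = 0.00815). It was the only 1 of the 10 genes called in that comparison, where 3.78% of all genes were called. The groups of 3 genes did not overlap there (*Muc3*, *Spink4* and *Fcgbp*), against 26.3% of all genes, and *Fcgbp* was higher in D2 by 0.24 (limma, adjusted p = 0.311). The call was close to the threshold of 0.01: it was kept under 5 of 26 alternatives, and the difference ranged from -0.84 to -0.42 over all of them. In wild-type mice the strains differed by -0.06 (95% interval -0.37 to 0.24). The 2 lowest *Spink4* signals were on D2 KO 2 and D2 KO 3, the arrays low in Paneth cell, pancreatic and lymphocyte markers, and D2 KO 1 at 2266 also lay below all 9 other arrays. Without D2 KO 2 and D2 KO 3 the difference was -0.42 (limma, adjusted p = 0.327).

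Of the 10 genes, 3 had groups that did not overlap in D2 mice (*Muc2*, *Muc3* and *Spink4*), against 16.5% of all genes, and the same 3 had an unadjusted p under 0.05, against 12.5% of all genes. In B6 mice 0 genes were called by limma (0.0154% of all genes), 0 had an unadjusted p under 0.05 (5.39% of all genes) and 0 had groups that did not overlap (11.4%). The median log2 fold change of the 10 genes was -0.18 in D2 and 0.05 in B6 mice, beside 0.01 and -0.01 over all 13006 genes. For the interaction 0 of 10 were called by limma, against 0.0154% of all genes, and 2 had an unadjusted p under 0.05 (*Muc3* and *Spink4*), against 10.4%.

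**Figure D4:**
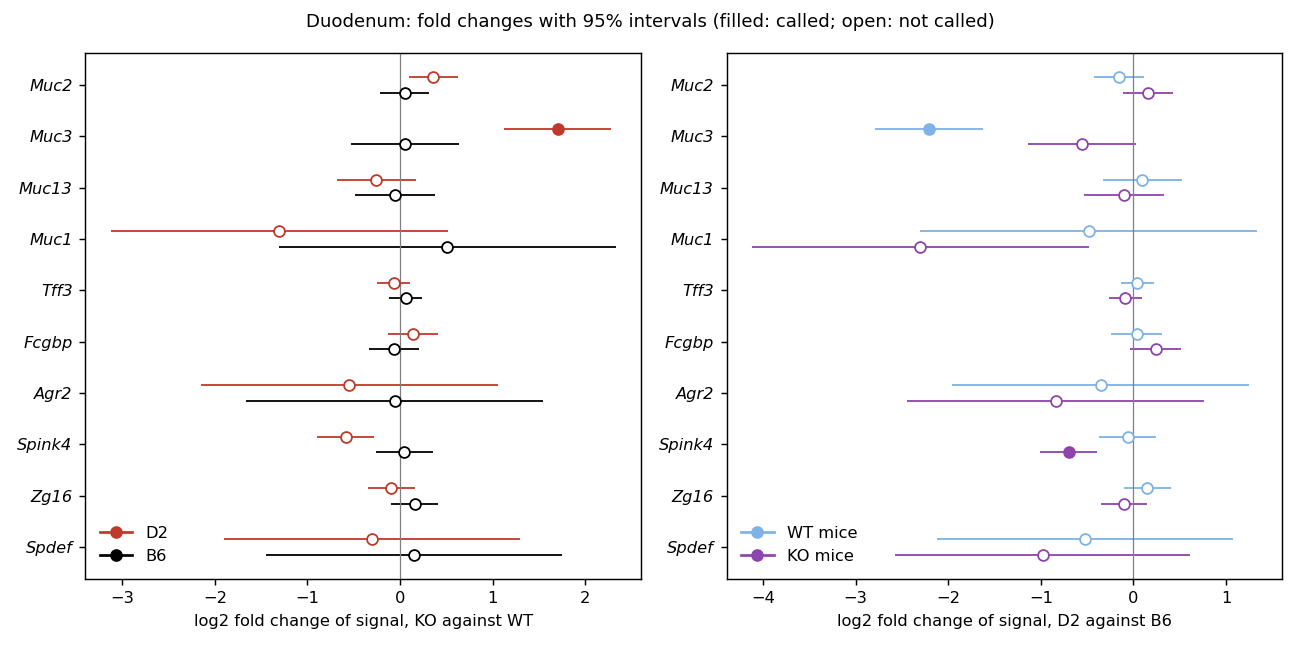
Log2 fold changes of signal in duodenum with 95% intervals, for *Hfe*-/- against wild-type mice of each strain (left) and D2 against B6 mice of each genotype (right); filled points were called. *Muc3* is called for D2 knockouts (1.70) and for wild-type strains (-2.21), *Spink4* for strains of *Hfe*-/- mice (-0.70), and the widest intervals are those of *Muc1*, *Agr2* and *Spdef*.

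*Agr2* and *Spdef* had, after *Muc1*, the largest standard errors of the 10 genes, and they were high on the same arrays. *Agr2* was 676 on B6 WT 1 but 4377 and 3569 on B6 WT 2 and 3. It was 3887, 880.1 and 2727 on B6 KO 1 to 3, and 1204, 4698 and 900.1 on D2 WT 1 to 3. On the *Hfe*-/- D2 arrays it was 984, 983 and 1681. The 5 arrays from 2727 upward thus came from 3 groups and both genotypes, and the same 5 arrays had the highest *Spdef*, at 157, 199, 253, 141 and 165, while the other 7 lay between 32.1 and 68.4. The second *Agr2* probe set followed (r = 0.93 over the 12 arrays).

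Those 5 arrays were also the highest in genes of Brunner's glands and of the pyloric stomach, the tissue next to the duodenum. The summed signal of the 9 such markers measured was 20890 to 28015 on them. On the other 7 arrays it was 902 to 3653 except on D2 KO 3, at 15092. *Gkn2*, a gastrokine of stomach surface cells, was 647 to 3057 on the 5 arrays and 2.32 to 26.8 on the others, and *Tff2*, a trefoil peptide of mucous neck cells and Brunner's glands, was 6827 to 9289 there. D2 KO 3 had *Tff2* at 6498 and *Gkn3* at 6225, but *Gkn2* at 4.33, and its *Agr2* was the sixth highest. Since the arrays fall into separate clusters, no correlation of *Agr2* or *Spdef* with the Brunner gland and pyloric markers over all 12 is given.

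The difference between genotypes in D2 mice was -0.55 for *Agr2* (standard error 0.74, 95% interval -2.15 to 1.05) and -0.31 for *Spdef* (0.74, interval -1.90 to 1.29). With the mean level of the Brunner gland and pyloric markers as a covariate, chosen after the data were seen, it was -0.36 for *Agr2* (standard error 0.24) and -0.12 for *Spdef* (0.22). In the wild-type strain comparison *Agr2* turned from -0.35 to 0.64 and *Spdef* from -0.52 to 0.47 with this covariate, and neither was called. With the same covariate *Spink4* was -0.58 (called, with adjusted p = 0.0929 by limma) and *Muc3* 1.68 (adjusted p = 0.0204). In the fit without D2 KO 2 and D2 KO 3, which had no covariate, neither gene was called.

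**Figure D5:**
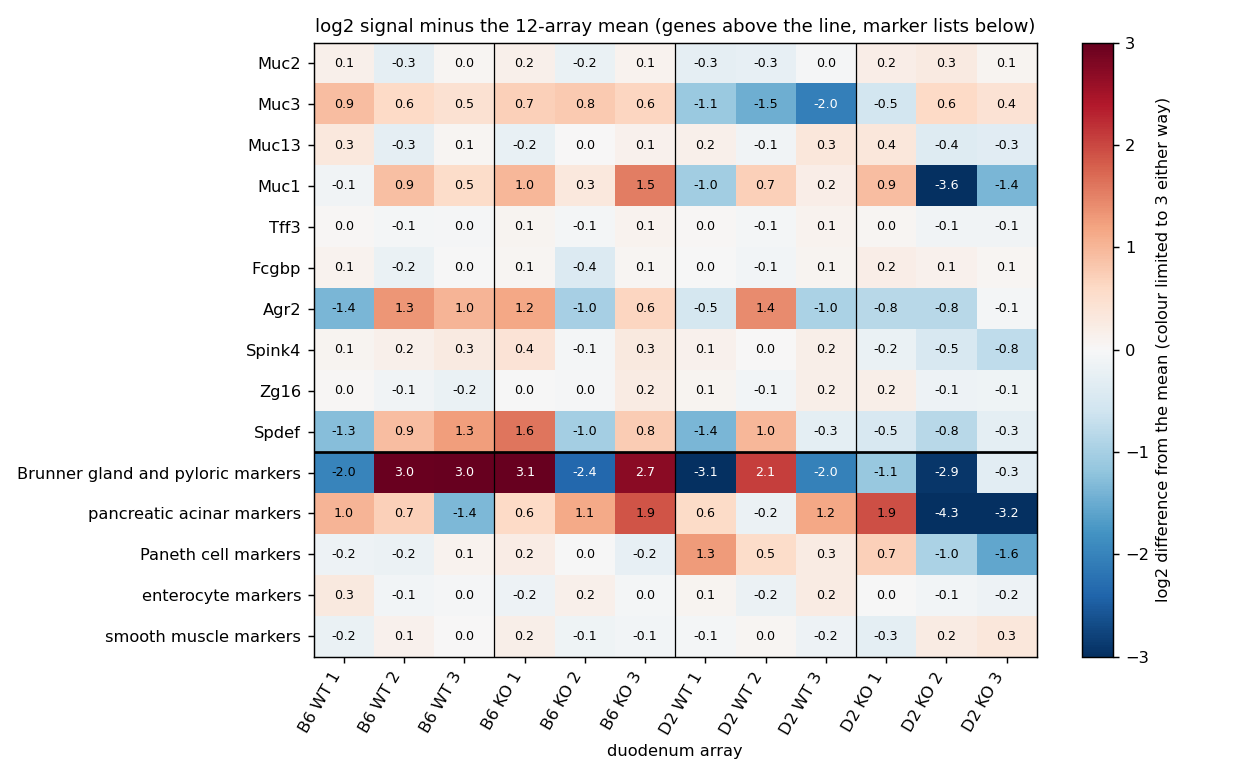
Log2 signal minus the mean of the 12 duodenum arrays for the 10 genes (above the line) and the mean of 5 marker lists (below), by array; red is higher and blue lower, with the colour limited to 3 either way. *Agr2* and *Spdef* are red where the Brunner gland and pyloric markers are, and D2 KO 2 and D2 KO 3 are the arrays with pancreatic acinar markers at -4.3 and -3.2.

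The starts of *Agr2* and *Spdef* are shown for this shared pattern. Each run is the 250 bases before the RefSeq start (GRCm38.p6, chr12:35992675-35992924, plus strand for *Agr2* and chr17:27728952-27729201, minus strand for *Spdef*), and capitals mark TATTTAC, searched on both strands, a letter string of the kind bound by forkhead factors such as Foxa1.
*Agr2*: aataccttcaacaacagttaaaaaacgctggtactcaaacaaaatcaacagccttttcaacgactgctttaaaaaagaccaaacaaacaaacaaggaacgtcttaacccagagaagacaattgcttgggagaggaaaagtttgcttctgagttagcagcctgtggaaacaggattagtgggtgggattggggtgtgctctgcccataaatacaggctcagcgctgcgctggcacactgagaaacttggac
*Spdef*: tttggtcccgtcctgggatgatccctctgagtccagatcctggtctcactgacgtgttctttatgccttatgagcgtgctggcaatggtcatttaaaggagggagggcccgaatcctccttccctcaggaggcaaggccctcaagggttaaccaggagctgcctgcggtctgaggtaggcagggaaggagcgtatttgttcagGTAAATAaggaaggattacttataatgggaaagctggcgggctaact
TATTTAC occurs on the opposite strand of the *Spdef* window, 47 bases before the start, and not in the *Agr2* window. It is found in 2.73% of all promoters, and the related TGTTTAC (3.16%) and the TATAAA box (12.4%) are in neither window. AGGTCA and CAAAGGT are in neither. All these strings were chosen after the sequences had been seen. Only exact matches were searched, and other forms of a forkhead site were not looked for in either window. The *Agr2* window is thus not shown to lack such a site. *Foxa1* itself was 264 to 355 on the 5 arrays with high *Agr2* and 103 to 161 on the others. The split was not particular to *Foxa1*. On the same arrays *Creb3l1* was 156 to 237 against 29.7 to 63.7, and *Creb3l4* was 97.9 to 133 against 22.0 to 46.7. *Atoh1*, at 119 to 134 against 95.3 to 175, did not split. A part of *Foxa1* in the shared pattern was not tested.

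The other genes of mucus were read from lists, each gene by 1 probe set. The lists share genes and are not separate evidence. Of the further goblet cell genes, *Tff1* and *Tff2* are also Brunner gland and pyloric markers. *Galnt12* and *Gcnt3* are also among the enzymes, and *Atoh1*, *Klf4* and *Foxa3* among the lineage factors. For the knockout, 0.492% of all genes were called in D2 and 0.0154% in B6 mice, shares at which lists of these sizes would hold few calls or none. Of 26 further goblet cell genes measured, 0 were called by limma in either strain, with medians of -0.05 in D2 and -0.09 in B6 mice. *Clca1*, a metalloprotease of goblet cells that processes Muc2, ran from 3582 to 5809 over the 12 arrays. Of 4 other mucins and mucin-like genes 0 were called, among 12 listed. Of 25 enzymes of mucin O-glycosylation 0 were called, with medians of -0.11 and -0.10. Of 16 factors of the secretory lineage, *Atoh1*, *Klf4* and *Foxa3* among them, 0 were called, with medians of -0.14 and 0.01. Of 15 enterocyte markers 0 were called, with medians of -0.03 and -0.04.

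The wild-type strains differed in several of these genes. No wild-type D2 array shared a hybridization run with a wild-type B6 array, so strain and run cannot be told apart between wild-type mice. *St3gal4*, a sialyltransferase that caps O-glycans, was 1999.7 to 3518 on the 6 B6 arrays and 19.3 to 39.8 on the 6 D2 arrays (limma, adjusted p = 2.20e-08 between wild-type mice). With signals under 20 set to 20 it was at least 99.1-fold lower in wild-type D2 mice, whose signals lay near that floor. *B3gnt3*, which extends core O-glycans, was lower in D2 (-1.02, adjusted p = 0.00249), while *Galnt11*, which starts O-glycan chains (1.27, adjusted p = 4.14e-05), and *Chst4*, a sulfotransferase (0.97, adjusted p = 0.00800), were higher. Thus 2 of the 25 enzymes were called higher in D2, where 1.34% of all genes were higher, and 2 lower, where 1.99% were. *Klf4*, a factor of goblet cell differentiation, was 1978 to 2214 in B6 and 1157 to 1558 in D2 mice, and its wild-type difference was -0.86 (adjusted p = 9.37e-05). The membrane mucin *Muc4* was lower in wild-type D2 mice (-1.75, adjusted p = 0.00161), and *Guca2a*, which encodes guanylin, was higher (1.63, adjusted p = 0.000733). Whether sequence differences between the strains lie under these probes was not examined.

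Over the 12 duodenum arrays the log2 signals most like *Muc3*, of 6445 genes with a mean signal of at least 100, were those of *Chpt1*, *Arfgef2*, *Sp5*, *Tmem252* and *Afp* (Pearson r from 0.95 to 0.94). For *Spink4* they were *Ccl28*, *Acot7*, *Ang4*, *Lancl1* and *Ppib* (0.92 to 0.88), of which *Ang4* encodes a Paneth cell protein. For *Muc2* they were *Cflar*, *Pdpr*, *Zcchc14*, *Rnf214* and *Gpam* (0.84 to 0.83). These points share arrays and group differences, and the values are a description.

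In liver 0 of the 10 genes were called by limma for the knockout, in D2 mice (3.28% of all genes called; 0 of 10 with an unadjusted p under 0.05, against 14.8%) or in B6 mice (1.17%; 1 of 10 with an unadjusted p under 0.05, against 12.6%, namely *Muc2*, with all of its signals under 20). Between the wild-type strains 0 of 10 were called as well (5.02% of all genes). *Tff3* was above 20 on every liver array. In wild-type B6 livers it was 232, 207 and 218, and in wild-type D2 livers 49.3, 70.9 and 134, so that the groups did not overlap, as for 29.6% of all genes. The log2 fold change of -1.50 (standard error 0.66, unadjusted p = 0.0393) did not pass after adjustment (limma, adjusted p = 0.212). In *Hfe*-/- mice *Tff3* was 168, 1569 and 135 in B6 and 85.7, 76.9 and 171 in D2 livers. The array B6 KO 2, at 1569, was 6.75-fold above the next highest liver array, and of 45037 probe sets *Tff3* had the largest such gap on it. Without this array the wild-type difference in *Tff3*, unaltered in size, was called (adjusted p = 0.00922). On B6 KO 2 the bile duct markers *Krt19*, *Krt7*, *Epcam* and *Cftr* were at 15.6, 3.89, 2.77 and 2.92. All were below 20, so that they gave no measure of bile duct cells there. *Sox9*, read beside them, was above 20 on this array, at 46.0, within the 12.6 to 53.8 of the other liver arrays.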

How the data were processed

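Duodenum and liver RNA of 12 mice was hybridized to Affymetrix Mouse430_2 arrays. The authors computed the deposited intensity values with MAS5, and the 2% trimmed mean of each array is 100. No detection calls were used here. Of 45101 probe sets, 64 controls were left out and 28061 whose third-highest signal reached 20 in a tissue were kept (13006 genes, each read from its brightest probe set). The log2 signals of each tissue were fitted with limma 3.58.1 in R 4.3.3 (4 groups, trended variance, Benjamini-Hochberg adjustment over all kept probe sets). A gene was called at an adjusted p up to 0.1 in knockout comparisons and their interaction with strain, and up to 0.01 between strains or tissues. The fit was tested on simulated data with independent normal noise for each probe set. That simulation held no differences in run or cell content between arrays, so it does not cover them. With 3 mice per group the smallest exact permutation p is 0.1. The alternatives were thresholds, scaling, filters, fewer arrays, a replicate block, hybridization runs and the omission of each array. The runs were inferred from hybridization times and are not named in the array records. Both marker covariates and the omission of D2 KO 2 with D2 KO 3 were chosen after seeing the data. The genes, their 10 symbols, the lists and the rule for named genes (all members, and listed genes past a threshold) were chosen with earlier results of these data known. *Muc3* was read by 1 probe set, and whether it separates *Muc3* from its neighbour *Muc3a* was not examined. Promoters came from RefSeq.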

Additional observations from a re-analysis of the deposited data

How the results depend on the processing

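Over the alternatives, 225 counts of called members were computed, of which 189 equalled the reported count, 28 were lower and 8 higher. The called values of *Muc3* and *Spink4* kept their sign throughout, whereas members that were not called turned under some alternatives: *Muc1* in D2 knockouts ranged from -2.44 to 0.96 and *Agr2* between wild-type strains from -1.20 to 1.44. For D2 knockouts in duodenum, 1 gene was called as reported. The count was 0 with the 6 compared arrays alone, without the variance trend, and without D2 KO 2 and D2 KO 3 together. It was 2 with the Brunner gland covariate (*Muc3* and *Spink4*), and 0 to 3 with 1 array left out. *Spink4* was called without D2 KO 1 (adjusted p = 0.0220 by limma), as was *Muc1*. The interaction count of 0 became 0 to 2 with 1 array left out. For wild-type strains the count of 1 fell to 0 with the run, or the run and station, as a block. For *Hfe*-/- strains the count of 1 fell to 0 with the stricter threshold, no filter, 6 arrays alone, no trend, run, run and station, the mean of all probe sets, either marker covariate and the omission of D2 KO 2 and D2 KO 3, and was 0 to 2 with 1 array left out. In liver the wild-type strain count of 0 became 1 (*Tff3*) with 6 arrays alone or the run as a block, and 0 to 1 with 1 array left out. Equal replicate numbers did not pair the duodenum arrays (correlations of -0.158 to 0.01). With the replicate block, 1 gene was called for D2 knockouts (*Muc3*, 1.70, adjusted p = 0.0915) and 0 for *Hfe*-/- strains (*Spink4*, adjusted p = 0.0121). The cause of these changes was not tested. Signals near 20, as for *Muc1* and for most members in liver, and the top of the scale for *Zg16* and *Tff3*, limit what could be measured.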
